A study of Rattus norvegicus with 6 samples.

Results

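A set of 140 genes was expressed in 2 rat hippocampal neuron cultures, specimens 1 and 5, and nearly absent from another, specimen 4. The members were chosen by these measured levels alone, from 31998 genes in all: each of the 4 libraries of specimens 1 and 5 had to show at least 10 CPM, and neither library of specimen 4 as much as 1 CPM. CPM, a gene's reads scaled to the library's total count, is the level used throughout. Of 142 genes that met both limits, 2 were left out of the set by identifier, so 140 are described. The near-absence from specimen 4 is therefore what defines the set and not a result of it, and it is given without a test.

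The cultures came from hippocampi of Wistar rat embryos at day 17 of gestation. They were treated with 10 µM cytosine arabinoside from day 3 and used after 12 days in vitro, per the labels' protocols. Specimens 1, 4 and 5 each gave 1 library with vehicle and 1 with 200 µM palmitic acid, so there were 3 libraries per treatment and 2 per specimen. The duration of exposure and the number of animals in a specimen are not stated in the labels.

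Dissociated embryonic hippocampus yields neurons together with other cells, among them astrocytes, cells of the oligodendrocyte lineage, microglia and cells of the vessels and meninges. Cytosine arabinoside is added to such cultures because it stops the division of proliferating cells, most of which are not neurons. Palmitic acid is a saturated fatty acid that cells burn for energy or build into membrane and storage lipids. In bulk RNA, fewer cells of a type and less RNA per cell cannot be told apart. The deposited table lists Ensembl identifiers without gene names, and the RefSeq gene table used here holds no Ensembl identifiers, so 0 of them were paired with a symbol. The members' functions, and the labelled cell type by its markers, were therefore not analysed here.

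Library totals ran from 15875411 to 18241773 counts. The specimen 4 totals were 15875411 (vehicle, the lowest of the 6) and 17697819 (palmitic acid), so a gene with 0 reads there can still have had up to 0.189 or 0.170 CPM (3 reads, counting error only). The specimen 4 libraries stood apart over all genes and not in this set alone. The chi-square per degree of freedom between the counts of 2 libraries was 125 to 189 for specimen 4 against specimens 1 and 5, and 46.6 to 66.7 between specimens 1 and 5. Between vehicle and palmitic acid, specimen 1 gave 19.5, specimen 5 gave 7.94 and specimen 4 gave 49.8. It grows with depth and is given as a description.

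In the cultures that held them, the 140 genes were moderately expressed. Their median level was 27.2 CPM in the vehicle library of specimen 1, 24.8 CPM in its palmitic acid library, 31.8 CPM in the vehicle library of specimen 5 and 28.2 CPM in its palmitic acid library. The 8929 genes outside the set that met the limit of 10 CPM had medians of 47.4 to 49.2 CPM in the same libraries. Averaged over the 4 libraries, 31 members lay between 10 and 20 CPM, 74 between 20 and 50, 19 between 50 and 100, and 16 at 100 or more. The 10 highest members carried 38.1% of the summed level of the set. ENSRNOG00000000814 had the highest mean, 575.5 CPM ± 57.0 (SD, n = 4 libraries), and the lowest member had a mean of 12.1 CPM.

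In specimen 4 the same genes had a median of 0.189 CPM (vehicle) and 0.226 CPM (palmitic acid). Their highest levels there were 0.882 and 0.961 CPM. The plot of levels by library shows an empty band between 1 and 10 CPM, which the limits of the set leave by construction.

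**Figure D1:**
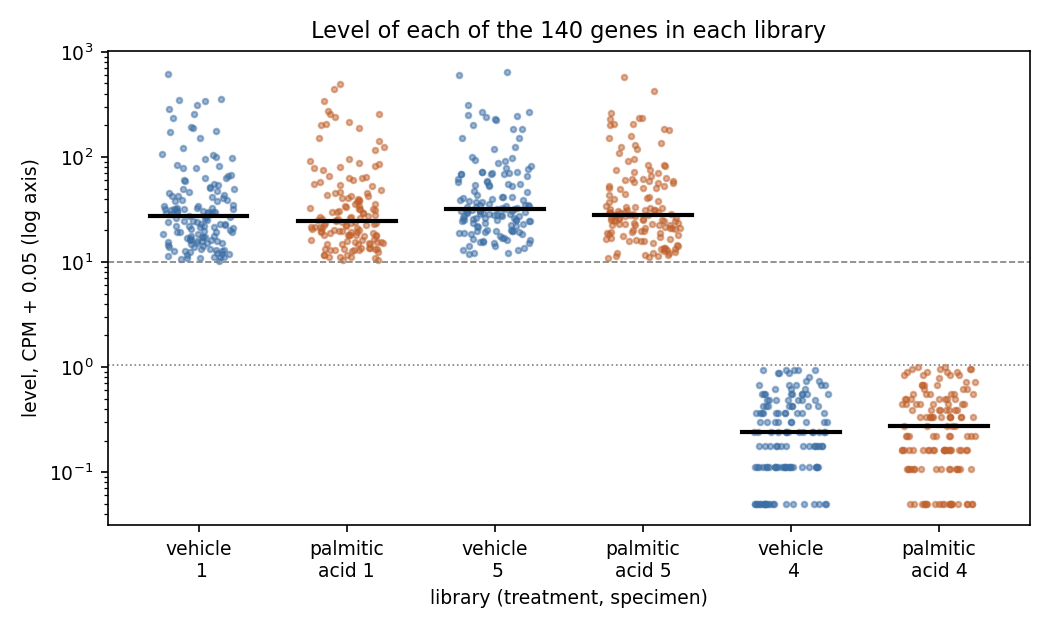
Level of each of the 140 genes (points, CPM + 0.05 on a log axis) in each of the 6 libraries, with the median as a bar; blue is vehicle and orange palmitic acid, and the dashed and dotted lines are the limits of 10 and 1 CPM. The medians lie between 24.8 and 31.8 CPM in specimens 1 and 5 and at 0.189 and 0.226 CPM in specimen 4.

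As a whole, the set took 0.769% of the counts in the vehicle library of specimen 1 and 0.735% in its palmitic acid library. It took 0.884% and 0.775% in those of specimen 5. In specimen 4 it took 0.00364% of the counts with vehicle (578 reads, exact Clopper-Pearson 95% interval 0.00335% to 0.00395%) and 0.00403% with palmitic acid (714 reads, 0.00374% to 0.00434%). The intervals cover counting error only. The summed level of the set was 195-fold higher in specimen 1 and 215-fold higher in specimen 5 than in specimen 4.

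Few reads of any member were seen in specimen 4. There, 9 members had 0 reads in both libraries, 25 had 0 reads in 1 of them, and 106 had reads in both. The median member had 7 reads over both libraries together, and the most was 30. For the 96 members with over 3 reads in specimen 4, the level pooled over specimens 1 and 5 was 20.7-fold to 1639-fold higher, with a median of 111-fold. For the 9 members with 0 reads, it was at least 158-fold to at least 614-fold higher, against a limit of 3 reads over both libraries. The other 35 members had 1 to 3 reads, with ratios of 154-fold to 2777-fold and a median of 619-fold, each with a wide counting interval.

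Across the 140 members, the level in specimens 1 and 5 and the level in specimen 4 had a Spearman's rho of 0.04. Between the vehicle and palmitic acid libraries of specimen 4 the rho was 0.62, so the same members tended to hold the few reads in both. These values describe genes that share libraries, over a range of levels that the limits of the set restrict.

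The members lay at the low end of the specimen 4 levels, with no gap above them. Of the 9071 genes that met the limit of 10 CPM in specimens 1 and 5, 8493 (93.6%) reached 10 CPM in at least 1 library of specimen 4. A further 254 genes reached 5 to under 10 CPM at most, 126 reached 2 to under 5 CPM and 56 reached 1 to under 2 CPM. At the specimen 4 limit, the 5 members just inside had a higher level of 0.904 to 0.961 CPM, and the 5 genes just outside had 1.02 to 1.07 CPM. At the other limit, the lowest level in specimens 1 and 5 was 10.2 to 10.7 CPM for the 5 members just inside, and 9.54 to 9.99 CPM for the 5 genes just outside.

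**Figure D2:**
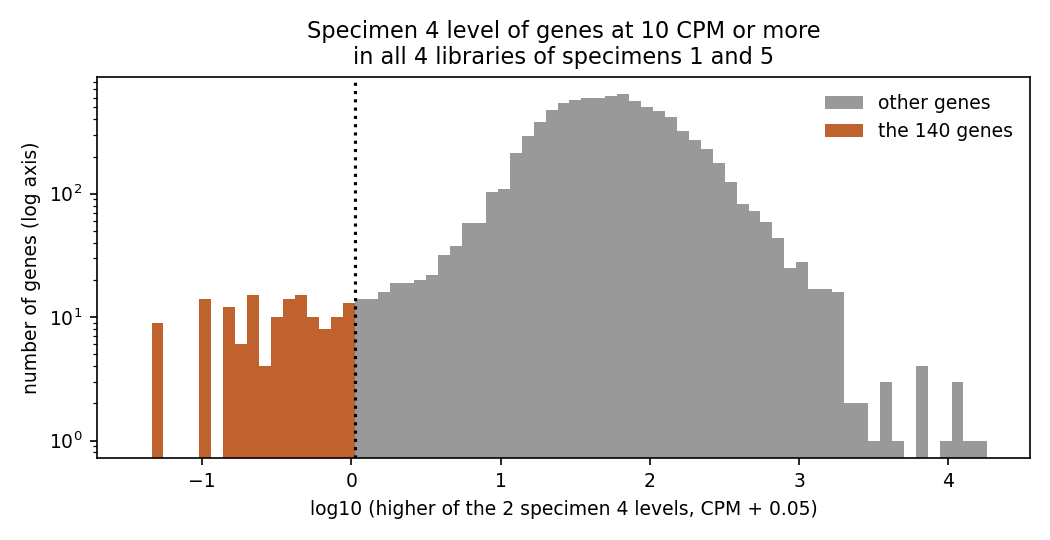
Number of genes (log axis) by the higher of their 2 specimen 4 levels (log10 of CPM + 0.05), among genes that met the 10 CPM limit in specimens 1 and 5; orange marks the 140 genes, grey the other genes, and the dotted line 1 CPM. The 140 genes sit below 1 CPM, and 56 genes follow between 1 and 2 CPM with no gap.

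Genes outside the set shared its pattern. Over the 6 libraries, 194 of the 8929 other genes had a Pearson's r of 0.99 or more with the mean log2(CPM + 1) profile of the set, as did 95 of the 140 members. These 194 genes reached a median of 6.13 CPM in the higher of their specimen 4 libraries, with a range of 1.02 to 216 CPM. The profile rests on 6 libraries from 3 specimens, and the members' own r follows from how they were chosen.

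Whether palmitic acid changed these genes was asked in specimens 1 and 5, the cultures in which they were measurable. The rule that chose the members did not compare the treatments, but it required 10 CPM in every library of these specimens. A gene that fell below 10 CPM with palmitic acid, or was below it with vehicle, could not be a member. The set was slightly lower with palmitic acid in sum, a difference of -4.48% in specimen 1 (7691 to 7347 CPM) and of -12.3% in specimen 5 (8844 to 7753 CPM). In specimen 4 its sum was 36.4 CPM (vehicle) and 40.3 CPM (palmitic acid). Each of these values compares 1 library with 1 library. Without the 2 members ENSRNOG00000016043 and ENSRNOG00000012906 the differences were -1.07% in specimen 1 and -10.0% in specimen 5.

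No member passed the test for palmitic acid in the fit with treatment as its only term (edgeR's quasi-likelihood test on the 4 libraries, Benjamini-Hochberg adjusted p under 0.05). The counts were 0 higher and 0 lower of 140, as for all 14042 genes tested (0% higher and 0% lower). Unadjusted, 7 members (5%) had a p under 0.05, 1 of them higher and 6 lower, against 0.235% higher and 0.392% lower of all genes. All genes tested include genes under the limit of 10 CPM. DESeq2 and limma with the same term also called 0 members. A treatment term alone leaves the differences between specimens in the spread. The common coefficient of variation from edgeR was 0.274 in this fit and 0.117 with the specimen added. Of all genes, 0.627% had an unadjusted p under 0.05 in the unblocked edgeR fit. The 0 calls therefore do not show that the members were unchanged. The fitted log2 fold changes of the members ran from -0.98 to 0.59 with a median of -0.06, and the median over all genes tested was 0.02. The median was -0.20 without the vehicle library of specimen 1 and 0.06 without that of specimen 5.

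The specimen label pairs each vehicle library with a palmitic acid library. With the specimen as a replicate block, edgeR again called 0 members, against 0.0214% of all genes higher and 0.00712% lower. Unadjusted p-values under 0.05 were reached by 7 higher and 22 lower members, against 1.94% and 3.49% of all genes. In both directions together this was 20.7% of members and 5.43% of all genes. All genes tested include genes under the limit of 10 CPM, so these shares compare unlike levels. DESeq2 with the same block called 0 members higher and 2 lower. It gave an adjusted p to 1743 genes, 15 of them members, and called 0.115% of those genes higher and 0.459% lower. Those 15 were the members of highest mean level, and the other members could not be called. The member with the lowest fitted log2 fold change in that fit, -0.99, had no adjusted p. The blocked fits have 1 residual degree of freedom per gene, so their p-values lean on the spread shared across genes.

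ENSRNOG00000016043 was the second most abundant member and one of the pair called lower in the blocked DESeq2 fit. In specimen 1 it went from 346 CPM (vehicle) to 188 CPM (palmitic acid), in specimen 5 from 638 to 426 CPM, and specimen 4 had 0.189 and 0.339 CPM. Both specimens that held it had less of it with palmitic acid, but the groups overlapped, because specimen 5 with palmitic acid lay above specimen 1 with vehicle. DESeq2 with the block gave -0.73 ± 0.15 on the log2 scale (SE), with an adjusted p of 0.000263. The blocked edgeR fit gave -0.72 ± 0.12, adjusted p = 0.389. The unblocked edgeR fit gave -0.68 ± 0.50, adjusted p = 1.0, and ran from -1.38 to -0.18 when 1 library was left out.

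ENSRNOG00000012906, the other member called, went from 310 CPM (vehicle) to 199 CPM (palmitic acid) in specimen 1. In specimen 5 it stood at 265 and 182 CPM, and specimen 4 held 2 reads and 1 read. The palmitic acid libraries were below both vehicle libraries, so the groups of specimens 1 and 5 did not overlap. DESeq2 with the block gave -0.59 ± 0.15 on the log2 scale (SE), with an adjusted p of 0.0156. The edgeR fits gave -0.58 ± 0.10 with the block (adjusted p = 0.431) and -0.58 ± 0.15 without it (adjusted p = 1.0).

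The members with the largest positive fitted values, among those with the same sign in both specimens, were not called in any fit. In the blocked DESeq2 fit they were given no adjusted p, so they could not be called there. ENSRNOG00000014948 stood at 16.1 CPM (vehicle) and 25.2 CPM (palmitic acid) in specimen 1, and at 16.3 and 23.2 CPM in specimen 5. Its groups did not overlap, and edgeR gave a log2 fold change of 0.59 ± 0.17 (SE), adjusted p = 1.0, or 0.632 with the block. ENSRNOG00000014797 stood at 12.9 and 22.4 CPM in specimen 1 and at 65.7 and 92.2 CPM in specimen 5. Its 2 specimens differed by more than its treatments, and edgeR gave 0.54 ± 0.995 (SE), adjusted p = 1.0, or 0.538 with the block. That unblocked value changed sign to -0.20 without the vehicle library of specimen 1 and to -0.80 without the palmitic acid library of specimen 5.

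**Figure D3:**
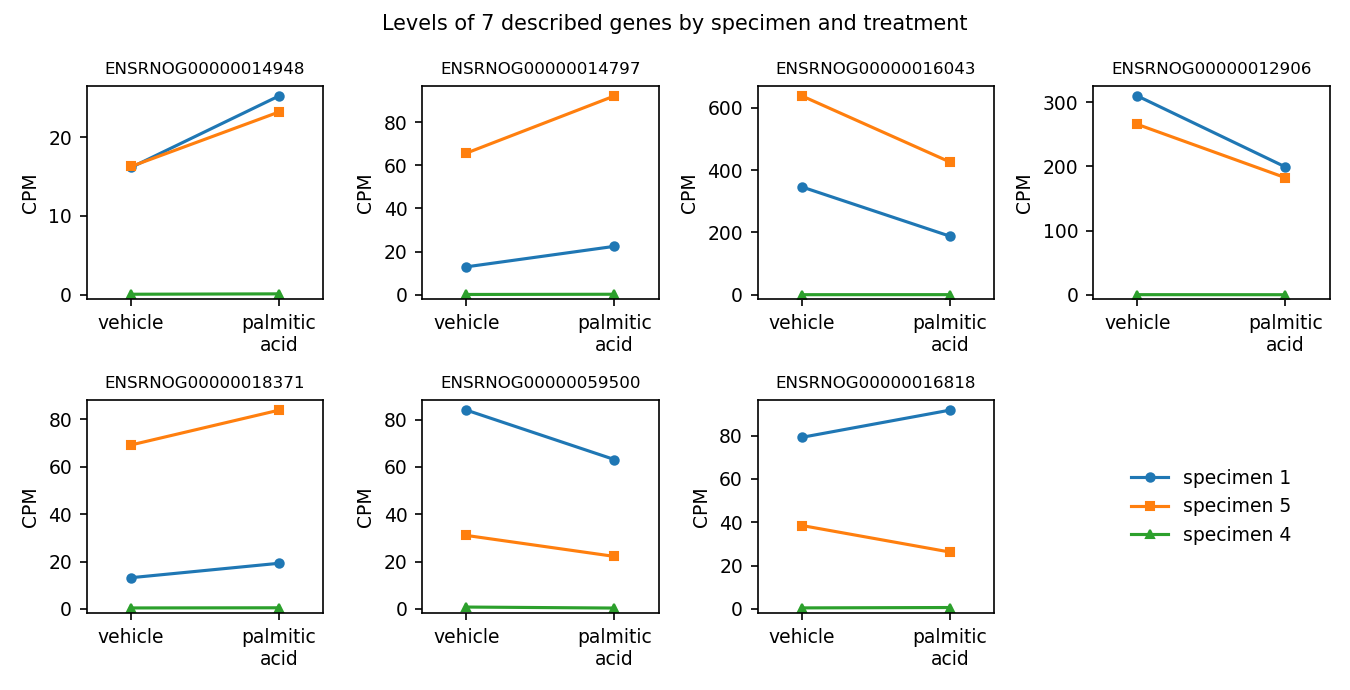
Level in CPM (linear axis from 0) of 7 members by treatment, with a line joining the 2 libraries of a specimen. ENSRNOG00000016043 and ENSRNOG00000012906 are lower with palmitic acid in specimens 1 and 5, ENSRNOG00000014948 and ENSRNOG00000014797 higher, and all 7 lie near 0 in specimen 4.

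Taken gene by gene, more members were lower than higher with palmitic acid in specimen 5 but not in specimen 1. In specimen 5, 113 members were lower and 27 higher, with a median log2 ratio of -0.20. In specimen 1, 66 were lower and 74 higher, with a median of 0.02. Of the other 8929 genes, 4289 were lower and 4640 higher in specimen 5, with a median of 0.01. In specimen 1, 3568 of them were lower and 5361 higher, with a median of 0.05. The median of the members thus lay below that of the other genes in both specimens.

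In both specimens, 60 members were lower (42.9%), 21 were higher (15%) and 59 went opposite ways. Among the other 8929 genes, 20.8% were lower in both and 32.8% higher in both. Over 1.5-fold lower in both specimens were 3 members, against 0.101% of the other genes, and over 1.5-fold higher in both were 0 members, against 0.0336%. Those 3 members had similar levels, 22.0 to 22.6 CPM on average. The changes of the members in specimens 1 and 5 had a Pearson's r of 0.53 (rho 0.52) across 140 genes, and those of the other genes an r of 0.09 (rho 0.12). The specimens share no library. Each change rests on 1 library per treatment, and genes are not independent replicates, so these values are a description.

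**Figure D4:**
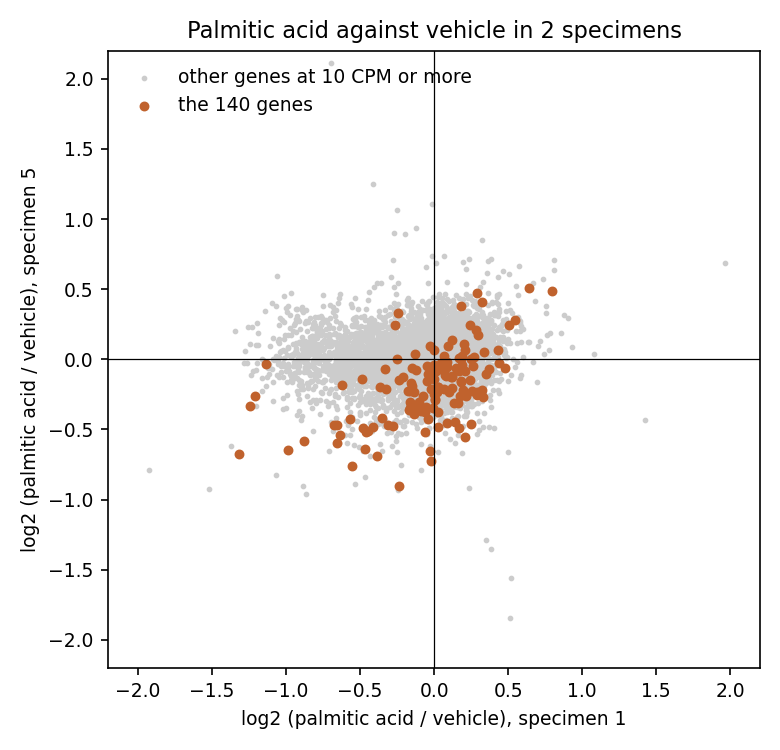
Log2 ratio of CPM, palmitic acid over vehicle, in specimen 1 (horizontal axis) and specimen 5 (vertical axis) for the 140 genes (orange) and the other genes at 10 CPM or more (grey). The orange points lie mostly below 0 on the vertical axis (113 of 140), with 60 in the lower left.

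Between specimens 5 and 1, many members differed in level. With treatment as a covariate, edgeR called 42 members higher (30%) and 19 lower (13.6%) in specimen 5, and 79 were not called. Over all 14042 genes tested, 10.7% were called higher and 6.91% lower. Over the 8929 other genes at 10 CPM or more, the shares were 8.32% and 7.55%. The rule required 10 CPM in both specimens and did not compare specimen 5 with specimen 1. It did use the levels in these same 4 libraries. It also chose genes that differ between cultures, since members had to be under 1 CPM in specimen 4. The members' shares here and their spread below are therefore not independent of that choice, and are given as a description. Each specimen enters with 1 library per treatment, so the p-values describe these 2 cultures only. When the fit included specimen 4, calls fell over all genes as well. It called 15 members higher and 3 lower, against 2.25% and 0.667% of the 13938 genes tested in that fit and 1.47% and 0.582% of the other genes at 10 CPM or more.

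The differences were of both signs and often large. The fitted log2 fold changes, specimen 5 over specimen 1, ran from -1.47 to 2.25 with a median of 0.17, and their SD across members was 0.72, against 0.38 across the other genes. Over 2-fold higher in specimen 5 were 21 members (15%) and over 2-fold lower 4 (2.86%), against 1.64% and 0.47% of the other genes. The sign was the same in the vehicle and palmitic acid libraries for 69 members higher and 46 lower in specimen 5, and opposite for 25.

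ENSRNOG00000018371 had the largest difference. It stood at 13.2 CPM (vehicle) and 19.3 CPM (palmitic acid) in specimen 1, and at 69.1 and 83.8 CPM in specimen 5. Specimen 5 was higher in both treatments, with a log2 fold change of 2.25 ± 0.13 (SE), adjusted p = 0.000745. ENSRNOG00000014797, whose levels are given above, followed with 2.18 ± 0.14, adjusted p = 0.000852.

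In the opposite direction, ENSRNOG00000059500 stood at 84.0 and 63.1 CPM in specimen 1 and at 31.1 and 22.2 CPM in specimen 5. Its log2 fold change was -1.47 ± 0.12 (SE), adjusted p = 0.00147. ENSRNOG00000016818 stood at 79.2 and 91.7 CPM in specimen 1 and at 38.5 and 26.3 CPM in specimen 5, a log2 fold change of -1.42 ± 0.19, adjusted p = 0.00687.

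**Figure D5:**
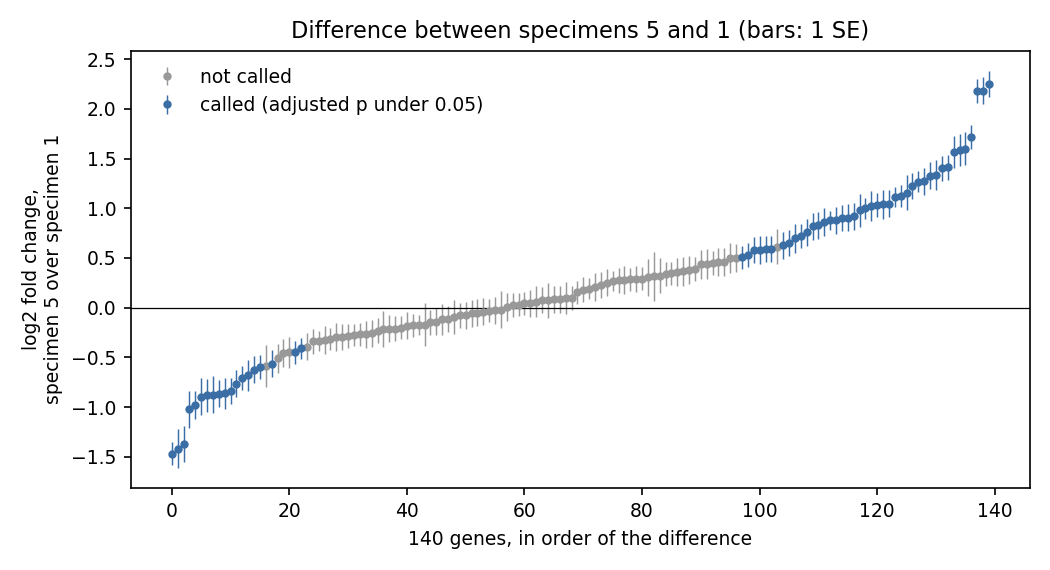
Log2 fold change of each of the 140 genes, specimen 5 over specimen 1, in order of size, with bars of 1 SE; blue points are called at an adjusted p under 0.05 (edgeR). The 42 genes called higher reach 2.25 and the 19 called lower reach -1.47.

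In sum, the 42 members called higher in specimen 5 summed to 1325 CPM (vehicle) and 1203 CPM (palmitic acid) in specimen 1, and to 2814 and 2557 CPM in specimen 5. The 19 called lower summed to 1525 and 1530 CPM in specimen 1, and to 1031 and 801 CPM in specimen 5. The 79 not called summed to 4842 and 4614 CPM in specimen 1, and to 4999 and 4394 CPM in specimen 5. In specimen 4 the 3 groups summed to 10.96 and 11.4 CPM, to 5.17 and 6.05 CPM, and to 20.3 and 22.9 CPM.

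With palmitic acid, 18 of the 19 members called lower in specimen 5 were also lower in that specimen, with a median log2 ratio of -0.47, and 12 of 19 were lower in specimen 1 (median -0.16). Of the 42 called higher in specimen 5, 27 were lower with palmitic acid there (median -0.07) and 18 in specimen 1 (median 0.04). These groups were formed from the same 4 libraries as the ratios, and the palmitic acid library of specimen 5 enters both, so the order of the ratios is not independent of the grouping.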

How the data were processed

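Raw counts per Ensembl rat gene, 31998 identifiers by 6 libraries, are the values the authors deposited. Per the labels, a stranded mRNA kit was used, while the design text speaks of depleting ribosomal RNA and of fewer cultures; the 6 labelled libraries were used. Per the submitters' processing notes, which give no roles, the tools include STAR 2.7.1a, featureCounts, Salmon 0.14.1 and Trimmomatic 0.39. The counter, its use of strand and the genome build: not given in the sources used here. Hence reads of overlapping or near-identical genes could be misassigned.

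CPM used column totals. The members, the lists and the tests were chosen with earlier results of these data known. The 23 gene lists written for the report need symbols and were not used. The rule for named genes then allowed 2 identifiers per direction and comparison: those of largest fitted change, or for palmitic acid lower, the 2 blocked DESeq2 calls, chosen after their values were seen, as was the most abundant member.

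Fits used R 4.3.3, edgeR 4.0.16 (TMM; filterByExpr, minimum count 10; a treatment term, fitted to the 4 libraries of specimens 1 and 5), DESeq2 1.42.0 and limma 3.58.1 (voom). The edgeR SE is the fold change over the square root of F. All 140 members passed the filter. Scripts were tested on simulated data. DESeq2 gave NA to genes removed by its own filter on mean count. The specimen label pairs the libraries. Across genes, the 2 libraries of a specimen deviated together from the treatment means, with r of 0.778, 0.885 and 0.878 for specimens 1, 4 and 5. Those means include specimen 4, which stood apart. Without it, the difference of specimen 1 minus specimen 5 had an r of 0.726 between vehicle and palmitic acid. No 2 libraries were copies of each other. The labels do not say whether specimens are separate animals, so p-values measure the spread between these libraries.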

Additional observations from a re-analysis of the deposited data

Results flagged for a closer look

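The median log2 change of the 140 members, palmitic acid over vehicle, was 0.015 in specimen 1 and -0.20 in specimen 5. The pair was picked out because the values have opposite signs. The medians of the other genes at 10 CPM or more were 0.048 in specimen 1 and 0.006 in specimen 5. Both values of the members lay below these. Each comes from 1 library per treatment, and the difference between the specimens was not tested. No group had 4 or more libraries, so single libraries were not screened for outlying values.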

How the results depend on the processing

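For palmitic acid against vehicle, 0 members were called higher and 0 lower in the fit without a block, and 12 of 13 alternatives gave the same counts. The exception was DESeq2 with the replicate block, with 2 lower, and the cause was not tested. The only other alternatives with the block were edgeR on the 4 libraries of specimens 1 and 5 and on all 6 libraries. Both called 0 members. The remaining alternatives kept treatment as the only term, so their like counts share the limit of that design. Leaving out each library left 1 library in a group, and gave a median log2 fold change from -0.20 to 0.06. ENSRNOG00000014797 was reversed to -0.20 without vehicle replicate 1 and to -0.80 without palmitic acid replicate 5. Its highest value was 2.14, without vehicle replicate 5. Those fits do not pair the libraries, and leaving 1 out makes the specimens unequal between treatments. Within specimens the log2 ratio of this gene was 0.79 in specimen 1 and 0.49 in specimen 5. The blocked edgeR fit gave 0.63 ± 0.13 (SE). For specimen 5 against specimen 1, 42 higher and 19 lower members became 15 and 3 with all 6 libraries. The lower count became 12 with no filter and 11 without the treatment term. The causes were not tested. DESeq2 called 28 and 13. The 4 genes named for that comparison stayed called in all 7 alternatives. Leaving out a library there leaves no residual degrees of freedom, so it was not run. The set of 140 became 249 with a limit of 5 CPM and 73 with 20 CPM in specimens 1 and 5, and 99 or 196 with 0.5 or 2 CPM in specimen 4. It was 142 with TMM-scaled totals. Depth limits what specimen 4 can show: a member with 0 reads there could have had 3.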
